A study of Mus musculus with 14 samples.

Results

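The comparison described here set 2 tibia libraries from ovariectomized mice given 3-(3-hydroxyphenyl)propionic acid (OVX-PPA) against 3 from ovariectomized mice given phosphate-buffered saline (OVX-PBS). These 5 libraries are 5 of the 14 in the series, and they were chosen by their treatment label alone. All mice were wild-type C57Bl/6 females, and their age is not stated in the sources used here. Both groups had lost their ovaries, so the comparison has no mouse with ovaries in it. Libraries from ovariectomized mice given hippuric acid (OVX-HA, 3 libraries) and from sham-operated mice (3 libraries) were used as further comparisons. The 3 libraries of mice given zoledronic acid (OVX-ZA) entered only the shared estimate of spread and the levels of some RNAs. Treatment began 2 to 4 days after surgery and lasted 8 weeks. The sources used here state no dose and do not tie libraries to single animals. The p-values below thus measure the spread between these samples, which may be technical. Total estimated counts were 18744895 and 29674649 in OVX-PPA, 20093916, 34223899 and 35157072 in OVX-PBS, 31259306 to 35418060 in OVX-HA and 29235959 to 32590683 in sham.

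Ovariectomy removes the main source of estrogen. In the bone that remains, osteoclasts, the cells that resorb bone, and osteoblasts, the cells that build it, are set against each other by the cytokine RANKL, its decoy receptor osteoprotegerin and Wnt signals, and loss of estrogen is known to favour resorption. The acid given here is a small phenolic acid that gut bacteria make from dietary polyphenols. Phenolic compounds are cleared by conjugation to glucuronic acid or sulfate, and related acids are known to act on hydroxycarboxylic acid receptors, the aryl hydrocarbon receptor and NRF2, the transcription factor of the antioxidant response. The question of the comparison was whether any of these systems, or other genes of the tibia, stood at another level in treated mice.

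Libraries within each group stood apart from each other before any treatment difference was considered. OVX-PBS replicate 1 held little RNA of central nervous tissue. The summed level of 20 nervous system markers was 6970 and 5900 CPM (counts scaled to library size with TMM factors) in OVX-PPA, against 1100, 4480 and 5340 CPM in OVX-PBS replicates 1 to 3. None of the 20 was at 0 in any of the 5 libraries, and the neuronal transporter Slc32a1 read 0.172 CPM in OVX-PBS replicate 1. The 2 OVX-PPA libraries differed from each other in marrow RNA. On the log2 CPM scale, 18 neutrophil genes averaged 5.70 and 7.12 in replicates 1 and 2 of OVX-PPA, against 6.00, 6.36 and 7.03 in OVX-PBS. Replicate 1 of OVX-PPA was thus below every OVX-PBS library and replicate 2 above every one. Over 13588 genes with a mean of at least 5 CPM, 233 (1.71%) were 2-fold or more apart between the 2 OVX-PPA libraries. Only 17 (0.125%) were that far apart between OVX-PPA replicate 2 and OVX-PBS replicate 3. Between OVX-PBS replicate 1 and each of the other 4 libraries, 5.13% to 7.23% were. Markers of bone, muscle, fat, blood and nervous tissue were all present in a sample labelled as tibia. In such whole-tissue RNA, fewer cells of a type and less RNA per cell cannot be told apart.

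**Figure D1:**
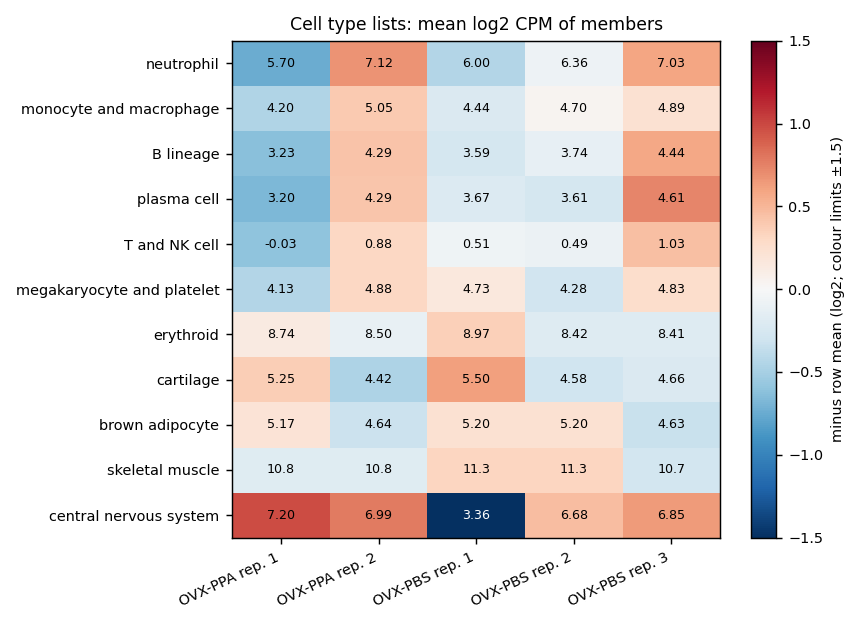
Mean log2 CPM of the members of 11 cell type lists (rows) in the 2 OVX-PPA and 3 OVX-PBS libraries (columns), with colour showing each value minus its row mean. Neutrophil genes averaged 5.70 and 7.12 in the OVX-PPA libraries, outside the 6.00 to 7.03 of OVX-PBS on both sides, and nervous system genes were low in OVX-PBS replicate 1.

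No gene passed an FDR of 0.05 between OVX-PPA and OVX-PBS. Of 21761 genes tested with edgeR's quasi-likelihood test, 0 passed after Benjamini-Hochberg adjustment (0% called, smallest adjusted p = 1.00), and 408 (1.87%) had an unadjusted p below 0.05. Of these, 133 (0.611%) were higher and 275 (1.26%) lower in OVX-PPA. DESeq2 also passed 0 genes (smallest adjusted p = 0.28), with 374 at an unadjusted p below 0.05. A limma fit of the log2 values that the authors deposited passed 1, the predicted gene Gm3912, which is described at the end. The precision was enough to bound most differences. Of 11668 genes with a mean of at least 10 CPM in OVX-PPA or OVX-PBS, 10286 (88.2%) had a 95% interval that lay wholly within 2-fold of no difference. Every gene named below is one that did not pass, and is given by its values, with the SE and 95% interval of the edgeR fit. Over all genes, 11.6% read higher in both OVX-PPA libraries than in all 3 OVX-PBS libraries and 8.77% read lower, which is the background for each count of genes without overlap. Of all genes, 47% had a log2 difference above 0.

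Osteoclast genes read close to each other in treated and untreated mice. Ctsk, the protease that digests bone collagen, read 170 and 187 CPM in OVX-PPA, against 186, 176 and 180 CPM in OVX-PBS. The log2 difference was -0.02 ± 0.32 (SE, n = 2 and 3), with a 95% interval of -0.72 to 0.68. Acp5, the acid phosphatase secreted by osteoclasts, read 249 and 286 CPM in OVX-PPA, against 272, 254 and 276 CPM in OVX-PBS, and its interval was -0.69 to 0.69. For both genes 1 OVX-PPA library lay below and 1 above every OVX-PBS library. None of the 18 osteoclast genes had an unadjusted p below 0.05. Their log2 differences ran from -0.24 for the calcitonin receptor Calcr to 0.22 for the proton pump subunit Atp6v1c1, with a median of -0.02, against -0.02 for all genes tested. The interval of 16 of the 18 lay within 2-fold.

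The ligands and receptors that steer bone turnover were also close. Tnfsf11, which encodes RANKL, read 1.68 and 2.17 CPM in OVX-PPA, against 2.12, 1.55 and 1.65 CPM in OVX-PBS (log2 difference 0.14, 95% interval -0.75 to 1.03). Its decoy receptor Tnfrsf11b read 7.38 and 5.97 CPM in OVX-PPA, against 7.03, 6.15 and 6.58 CPM in OVX-PBS (0.02, -0.63 to 0.66). Both genes overlapped between the groups. Csf1, the growth factor that osteoclast precursors need to survive, read 43.7 and 48.9 CPM in OVX-PPA, against 36.7, 41.5 and 41.9 CPM in OVX-PBS (0.21, 95% interval -0.02 to 0.44). Sema3a, an axon guidance protein that also protects bone, read 8.52 and 7.33 CPM in OVX-PPA, against 6.12, 5.94 and 7.12 CPM in OVX-PBS (0.31). Csf1, Sema3a and Axin2, a feedback target of Wnt signalling, were the 3 of 22 signalling genes that read higher in both OVX-PPA libraries than in all OVX-PBS libraries, and Ctnnb1, which encodes beta-catenin, was the 1 that read lower. Of the 22 genes 11 were above and 11 below 0, and 21 had an interval within 2-fold.

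Osteoblast and osteocyte genes were slightly lower on balance in OVX-PPA. Of 20 genes 17 had a log2 difference below 0 and 3 above, with a median of -0.11 and none at an unadjusted p below 0.05. Bglap, which encodes osteocalcin, read 196 and 159 CPM in OVX-PPA, against 202, 183 and 193 CPM in OVX-PBS (-0.12, -0.83 to 0.60). Its near-identical neighbours Bglap2 and Bglap3 can share reads with it, so each value is uncertain. Col1a1, the main collagen of bone, read 2708 and 2801 CPM in OVX-PPA, against 3127, 2494 and 3512 CPM in OVX-PBS (-0.14, -0.91 to 0.62). Phospho1, a phosphatase that starts mineralization, read 131 and 105 CPM in OVX-PPA, against 181, 150 and 117 CPM in OVX-PBS (-0.34). Sost, the osteocyte inhibitor of Wnt signalling, read 13.1 and 6.74 CPM in OVX-PPA, against 8.75, 4.60 and 7.52 CPM in OVX-PBS (0.51, -0.61 to 1.63). The first OVX-PPA library alone exceeded the range of OVX-PBS. Without OVX-PBS replicate 1, the list stood at 10 above and 10 below 0, with a median of 0.0073. Cartilage genes differed mainly between the 2 OVX-PPA libraries, with log2 CPM means of 5.25 and 4.42, beside 5.50, 4.58 and 4.66 in OVX-PBS.

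**Figure D2:**
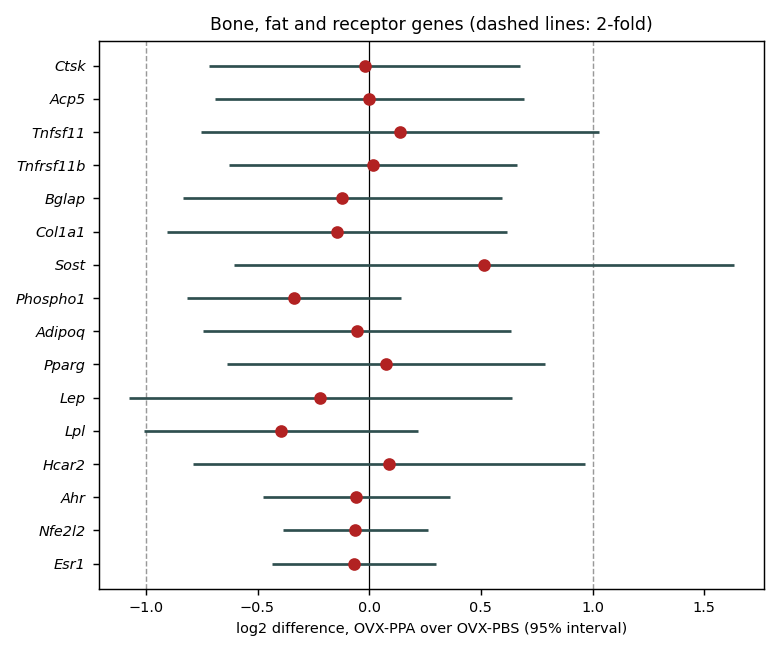
Log2 difference of 16 genes of osteoclasts, bone signalling, osteoblasts, fat cells and receptors, OVX-PPA (2 libraries) over OVX-PBS (3 libraries), with points for the estimate, bars for the 95% interval of the edgeR fit and dashed lines at 2-fold. Every interval includes 0, and those of Sost, Tnfsf11, Lep and Lpl reach beyond 2-fold.

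Fat cell genes were likewise within the spread of the libraries. Adipoq, the adipocyte hormone adiponectin, read 119 and 95.8 CPM in OVX-PPA, against 121, 133 and 80.4 CPM in OVX-PBS (log2 difference -0.06, -0.75 to 0.64). Pparg, the nuclear receptor that drives adipogenesis, read 25.2 and 19.9 CPM in OVX-PPA, against 24.9, 23.3 and 16.1 CPM in OVX-PBS (0.07). Lep, which encodes leptin, read 10.8 and 6.94 CPM in OVX-PPA, against 12.2, 9.05 and 9.70 CPM in OVX-PBS (-0.22). These 3 genes overlapped between the groups. Of 20 white adipocyte genes 17 were below 0 (median -0.17, or -0.02 without OVX-PBS replicate 1), with none at an unadjusted p below 0.05 and none without overlap. Among 11 brown adipocyte genes, Fabp3, a fatty acid carrier that muscle also makes, had an unadjusted p below 0.05. It read 180 and 140 CPM in OVX-PPA, against 296, 221 and 185 CPM in OVX-PBS (-0.55 ± 0.23, 95% interval -1.06 to -0.05). It differed by -0.35 without OVX-PBS replicate 1, with an unadjusted p above 0.05. Ucp1, the uncoupling protein of brown fat, read 177 and 70.5 CPM in OVX-PPA, against 161, 182 and 69.3 CPM in OVX-PBS. Muscle and fat burning genes were lower on balance. All 20 skeletal muscle genes were below 0 (median -0.32), and 19 of 20 without OVX-PBS replicate 1 (median -0.24). So were 14 of 17 genes of fatty acid oxidation (median -0.27, or -0.09 without that library). No gene of either list had an unadjusted p below 0.05. The summed muscle level was 60400 and 63400 CPM in OVX-PPA, against 90000, 84800 and 57300 CPM in OVX-PBS, so OVX-PBS replicate 3 lay below both treated libraries.

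Receptors and sensors that could meet a phenolic acid were present at similar levels. Hcar2, the hydroxycarboxylic acid receptor for nicotinic acid and butyrate, read 3.42 and 2.40 CPM in OVX-PPA, against 2.92, 2.68 and 2.59 CPM in OVX-PBS (log2 difference 0.09, -0.79 to 0.96). Ahr, the aryl hydrocarbon receptor, read 8.25 and 6.87 CPM in OVX-PPA, against 9.72, 6.88 and 7.04 CPM in OVX-PBS (-0.06, -0.48 to 0.36). Nfe2l2, which encodes NRF2, read 63.3 and 70.1 CPM in OVX-PPA, against 77.3, 64.0 and 67.7 CPM in OVX-PBS (-0.06, -0.39 to 0.26). Esr1, the estrogen receptor, read 23.4 and 25.8 CPM in OVX-PPA, against 28.8, 25.2 and 23.6 CPM in OVX-PBS (-0.07, -0.43 to 0.30). The groups overlapped in each of these 4 genes. Targets of the aryl hydrocarbon receptor did not stand out either: Tiparp, a repressor that the receptor induces, differed by -0.14 and Nqo1, a quinone reductase, by -0.13. In the aryl hydrocarbon receptor list 0 of 9, in the acid receptor and transporter list 0 of 12 and in the estrogen list 0 of 9 tested genes had an unadjusted p below 0.05. Of the listed genes, 1 of 10, 3 of 15 and 2 of 11 were below the filter on low counts.

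In the genes of phenol conjugation, a closely related pair lay on opposite sides of OVX-PBS. Ugt1a6b, a UDP-glucuronosyltransferase of simple phenols (ENSMUSG00000090145, mm10 chromosome 1, 88103252-88219003, + strand), read 2.55 and 2.08 CPM in OVX-PPA, against 0.686, 0.579 and 0.906 CPM in OVX-PBS. Both treated libraries were above all 3 of OVX-PBS (log2 difference 1.66 ± 0.45, 95% interval 0.68 to 2.63). Ugt1a6a, its neighbour in the same locus, read 3.31 and 4.28 CPM in OVX-PPA, against 6.98, 6.24 and 5.84 CPM in OVX-PBS, with both treated libraries below (-0.73 ± 0.27, 95% interval -1.32 to -0.15). Their longest annotated transcripts share an identical run of 261 bases, and 29.5% of the 75-base stretches of Ugt1a6b, the length of a read, occur unchanged in Ugt1a6a. Reads can therefore be assigned to either gene, and the separate values are uncertain. Other Ugt1a genes overlap Ugt1a6b on the same strand, so their reads may be mixed in as well, also in the sum. The sum of both was 5.86 and 6.36 CPM in OVX-PPA, against 7.66, 6.82 and 6.74 CPM in OVX-PBS, lower in both treated libraries. Of the other 14 tested genes of the list none had an unadjusted p below 0.05. The level of Ugt1a6b in OVX-HA was 1.26, 1.41 and 1.21 CPM and in sham 1.32, 0.873 and 2.34 CPM, so the lowest values of these 11 libraries were those of OVX-PBS replicates 1 and 2. OVX-ZA read 2.97, 2.64 and 1.11 CPM, and its replicates 1 and 2 were above both OVX-PPA libraries.

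**Figure D3:**
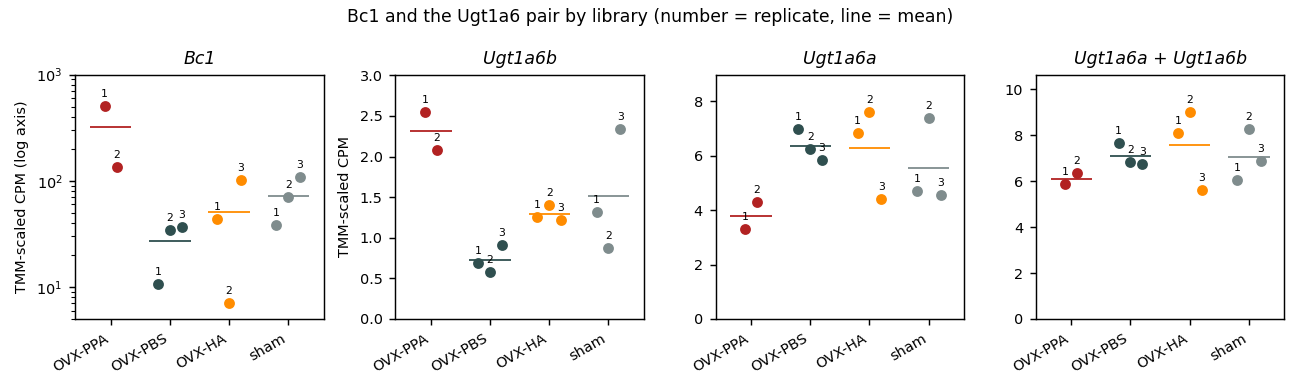
TMM-scaled CPM of Bc1 (log axis) and of Ugt1a6b, Ugt1a6a and their sum (linear axes from 0) in each OVX-PPA, OVX-PBS, OVX-HA and sham library, with lines at group means. Bc1 was at 504 and 136 CPM in OVX-PPA, above every OVX-PBS, OVX-HA and sham library, and Ugt1a6b and Ugt1a6a lay on opposite sides of OVX-PBS while their sum differed less.

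Stress-induced genes were among the named genes with the smallest p on the lower side. Heat shock proteins are chaperones that hold or refold damaged proteins, and immediate early genes encode transcription factors, such as the AP-1 subunits of the Jun and Fos families, that cells make within minutes of a stimulus. Hspb1, a small heat shock protein (ENSMUSG00000004951, mm10 chromosome 5, 135887919-135889563, + strand), read 42.5 and 40.7 CPM in OVX-PPA, against 77.2, 71.4 and 50.5 CPM in OVX-PBS. Both treated libraries were below all 3, and OVX-PBS replicate 3 was the nearest (log2 difference -0.67 ± 0.19, 95% interval -1.07 to -0.27). OVX-HA read 58.1, 56.8 and 52.4 CPM and sham 50.2, 49.1 and 64.5 CPM, so OVX-PPA was the lowest of these 4 groups. OVX-ZA read 43.0, 39.2 and 51.3 CPM, and its replicate 2 was below both OVX-PPA libraries. Hspa1b, an inducible HSP70, read 14 and 14.4 CPM in OVX-PPA, against 34.8, 17.4 and 18.1 CPM in OVX-PBS (-0.72 ± 0.27). Its twin Hspa1a read 19.2 and 12.2 CPM in OVX-PPA, against 28.6, 19.2 and 20.4 CPM in OVX-PBS (-0.54 ± 0.22). Their transcripts share a run of 638 identical bases, so the sum is safer, and it was 33.2 and 26.6 CPM in OVX-PPA, against 63.4, 36.6 and 38.5 CPM in OVX-PBS. Most of the distance in the HSP70 sum came from OVX-PBS replicate 1, and without that library Hspa1b differed by -0.32.

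Of 20 heat shock genes, 16 were below 0 and 4 above, 3 had an unadjusted p below 0.05 on the lower side and 0 on the higher side, and 6 were lower and 3 higher without overlap. The median log2 difference was -0.13. Without OVX-PBS replicate 1, 14 of 20 were below 0, 1 had an unadjusted p below 0.05, and the median was -0.04. The constitutive chaperone Hspa8 read 647 and 657 CPM in OVX-PPA, against 796, 756 and 739 CPM in OVX-PBS (-0.23), and Hspa4l, an HSP110 chaperone, was on the other side with 78.3 and 74.3 CPM in OVX-PPA, against 46.3, 60.7 and 68.8 CPM in OVX-PBS (0.38).

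Among 26 immediate early genes, 22 were below 0 in OVX-PPA and 13 had both OVX-PPA libraries under all 3 OVX-PBS libraries, against a background of 8.77%, while 1 was higher. The median log2 difference was -0.32, and -0.14 without OVX-PBS replicate 1, with 19 of 26 then below 0. Jun, an AP-1 subunit (ENSMUSG00000052684, mm10 chromosome 4, 95049034-95052222, - strand), read 72.2 and 64.6 CPM in OVX-PPA, against 154, 93.2 and 85.9 CPM in OVX-PBS (-0.70 ± 0.22, 95% interval -1.18 to -0.21). OVX-PBS replicate 1 was far above the rest, and without it the difference was -0.39. Jund, another AP-1 subunit, read 93.7 and 82.2 CPM in OVX-PPA, against 126, 112 and 103 CPM in OVX-PBS (-0.37 ± 0.12). Ier2, a short-lived nuclear regulator, read 17.6 and 15.3 CPM in OVX-PPA, against 28.1, 22.1 and 19.5 CPM in OVX-PBS (-0.50 ± 0.22). For Fos the values were 25.1 and 23.2 CPM in OVX-PPA, against 52.1, 25.3 and 29.3 CPM in OVX-PBS (-0.56), and the nearest libraries of the groups were almost level. Nr4a3, an orphan nuclear receptor, read 1.95 and 3.15 CPM in OVX-PPA, against 3.95, 4.66 and 4.61 CPM in OVX-PBS (-0.78). The means of the list were log2 CPM values of 4.43 and 4.43 in OVX-PPA and 4.89, 4.59 and 4.55 in OVX-PBS. Of 40 lists this was the only one with both OVX-PPA means under all OVX-PBS means, and 3 had both above. The 3 were the lists of phenol conjugation, central nervous system and neuronal noncoding RNA. Among all genes tested, 8.77% read lower and 11.6% higher without overlap. Those are shares of single genes, and means of lists can have another rate. They cannot say whether 1 list in 40 is few or many. The sham means of the immediate early list were 4.30, 4.24 and 4.47, so replicate 3 lay above both OVX-PPA libraries and replicates 1 and 2 below. The list's median log2 difference was -0.09 for OVX-PPA over OVX-HA and 0.14 for OVX-PPA over sham.

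**Figure D4:**
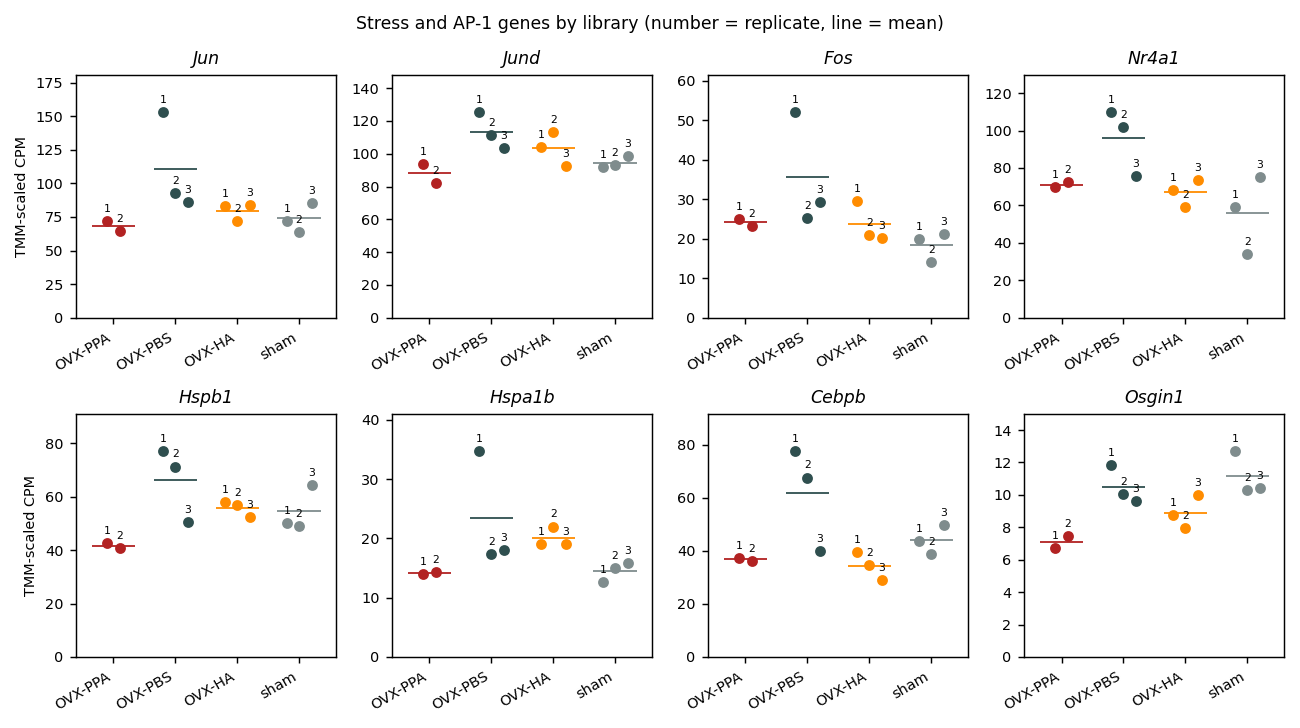
TMM-scaled CPM of 8 stress-induced and AP-1 genes in each library of OVX-PPA, OVX-PBS, OVX-HA and sham, with lines at group means and axes from 0. The 8 genes were chosen by p or with their values known, so their shared order does not describe their lists. In OVX-PPA, 3 heat shock genes and 1 immediate early gene read higher without overlap. Both OVX-PPA libraries are below all 3 OVX-PBS libraries in each panel, by the widest margin from OVX-PBS replicate 1 in Jun, Fos and Hspa1b, while sham libraries reach OVX-PPA levels or lower in 1 or more libraries of Jun, Fos, Nr4a1 and Hspa1b.

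Other regulators and stress genes also had a small p on the lower side. Cebpb, a transcription factor of myeloid and fat cell formation that inflammation induces (ENSMUSG00000056501, mm10 chromosome 2, 167688915-167690418, + strand), read 37.4 and 36.3 CPM in OVX-PPA, against 77.7, 67.7 and 39.9 CPM in OVX-PBS. Replicates 1 and 2 of OVX-PBS were high and replicate 3 was near the treated level (log2 difference -0.74 ± 0.23, 95% interval -1.25 to -0.23). Nfil3, a basic leucine zipper repressor that opposes clock output genes, read 8.68 and 13.8 CPM in OVX-PPA, against 21.6, 19.8 and 14.4 CPM in OVX-PBS (-0.71 ± 0.23). Herpud1, which serves the removal of misfolded proteins from the endoplasmic reticulum, read 77.6 and 80.4 CPM in OVX-PPA, against 99.4, 107 and 93.4 CPM in OVX-PBS (-0.34 ± 0.10). Herpud1 differed by -0.34 without OVX-PBS replicate 1 as well.

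Osgin1, an oxidative stress gene listed among the targets of NRF2 (ENSMUSG00000074063, mm10 chromosome 8, 119434124-119446256, + strand), was the member of that list with the smallest p. It read 6.73 and 7.46 CPM in OVX-PPA, against 11.8, 10.1 and 9.62 CPM in OVX-PBS, 8.76, 7.93 and 9.997 CPM in OVX-HA and 12.7, 10.3 and 10.4 CPM in sham. Both OVX-PPA libraries were the lowest of these 11 (-0.56 ± 0.16, 95% interval -0.91 to -0.22 against OVX-PBS, and -0.65 ± 0.16 against sham). OVX-ZA read 8.41, 7.55 and 7.96 CPM, and its replicate 2 was close to OVX-PPA replicate 2. The other 17 genes of the list had no unadjusted p below 0.05, and 7 of 18 were above 0. Hmox1, the heme oxygenase that NRF2 induces, read 26.8 and 52.0 CPM in OVX-PPA, against 35.2, 35.2 and 46.9 CPM in OVX-PBS (0.01, -0.58 to 0.60). Promoter windows of several named and stress genes were searched for several elements. The window of Osgin1 is shown because it was the one in which an AP-1 element was found. It covers mm10 chr8:119436897-119437196 on the + strand, from RefSeq's GRCm38.p6 table, with the element TGACTCA in capitals.
Osgin1 window: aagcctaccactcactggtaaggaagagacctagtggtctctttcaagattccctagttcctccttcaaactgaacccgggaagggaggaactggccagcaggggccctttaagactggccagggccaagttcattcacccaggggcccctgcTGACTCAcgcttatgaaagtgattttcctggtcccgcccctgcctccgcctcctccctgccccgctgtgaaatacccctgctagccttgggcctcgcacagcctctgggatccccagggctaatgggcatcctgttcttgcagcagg
The element lies at bases 154 to 160 of the window, which begins 250 bases before the RefSeq start. That start, at 119437147, lies 3023 bases inside the gene as GENCODE M21 gives it, so the annotations differ. It overlaps a GCGTG match, read on the other strand, at bases 159 to 163. On either strand, TGACTCA occurs in 5.2% and GCGTG in 32.4% of 32851 mouse promoter windows of 300 bases. The antioxidant element TGACNNNGC, where N is any base, occurs in 12.4% of them. It was also searched and was not in the Osgin1 window, while windows of Cebpb, Dnajb1, Hsph1 and Herpud1 held it. No TGACTCA was in the windows of Jun, Jund, Hspb1 or Cebpb. The Jund window ends at 70697788, before the GENCODE start of that gene at 70698949, so it may miss the promoter in use. Only exact letters were searched, so a near match such as TGACATCA in the Jun window was not counted. The search thus cannot say that these promoters lack AP-1 sites. A match of letters is a description of the window and not a binding site.

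Genes of the translation machinery were lower on balance. Mrps26, a protein of the small subunit of the mitochondrial ribosome (ENSMUSG00000037740, mm10 chromosome 2, 130563742-130568695, + strand), had the smallest p of the lower genes named here. It read 19.6 and 18.5 CPM in OVX-PPA, against 28.0, 27.1 and 23.4 CPM in OVX-PBS (log2 difference -0.46 ± 0.12, 95% interval -0.73 to -0.19), with both treated libraries below all 3. OVX-HA read 24.7, 25.6 and 21.9 CPM and sham 24.8, 23.1 and 26.3 CPM, so OVX-PPA was below these as well. OVX-ZA read 20.9, 20.7 and 23.6 CPM, nearer to OVX-PPA but above both of its libraries. All 21 genes of the mitochondrial ribosome were below 0 (median -0.23), 3 of them with an unadjusted p below 0.05, namely Mrps26, Mrps21 and Mrpl34, but only 2 without overlap. Without OVX-PBS replicate 1, 20 of 21 were below 0 with a median of -0.15. The list mean of OVX-PBS replicate 3 (log2 CPM 4.72) lay between those of OVX-PPA replicates 1 (4.84) and 2 (4.64). OVX-PBS replicates 1 (5.11) and 2 (5.09) were above both. Of 28 cytoplasmic ribosomal protein genes 26 were below 0 (median -0.21, or -0.10 without OVX-PBS replicate 1) and 6 were lower without overlap, with none at an unadjusted p below 0.05. The mean of this list was likewise between the treated libraries (6.84 and 6.65) for OVX-PBS replicate 3 (6.74). It was above them for OVX-PBS replicates 1 (7.11) and 2 (6.96). Genes encoded by mitochondrial DNA changed side with OVX-PBS replicate 1: 3 of 13 were above 0 with it and 13 of 13 without it.

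Matrix, vessel and interferon genes were also lower on balance. Of 24 collagen and matrix processing genes 22 were below 0 (median -0.16) and 10 were lower without overlap. P4ha1, a subunit of the enzyme that hydroxylates collagen prolines, read 43.6 and 46.0 CPM in OVX-PPA, against 63.5, 53.8 and 52.2 CPM in OVX-PBS (-0.33 ± 0.12). Without OVX-PBS replicate 1 the median of the list was -0.04, with 18 of 24 below 0. The tendon transcription factor Scx read 7.27 and 6.74 CPM in OVX-PPA, against 10.1, 9.08 and 7.97 CPM in OVX-PBS (-0.37). Of 16 endothelial genes 15 were below 0 (median -0.12), and of 24 interferon response genes 22 were (median -0.23). The interferon list kept its median without OVX-PBS replicate 1 (-0.22). It depended on which OVX-PPA library was used, with -0.51 from replicate 1 alone and -0.08 from replicate 2 alone. Irf7, a regulator of interferon genes, read 18.6 and 18.5 CPM in OVX-PPA, against 33.1, 25.9 and 23.2 CPM in OVX-PBS (-0.56 ± 0.34). Oas2, an antiviral RNA sensor, read 5.70 and 8.11 CPM in OVX-PPA, against 10.8, 9.17 and 9.12 CPM in OVX-PBS (-0.48 ± 0.25). Over all 40 lists, 655 genes were tested, of which 2 had an unadjusted p below 0.05 on the higher side and 16 on the lower side, beside 0.611% higher and 1.26% lower among all genes. Summed over the lists, these numbers were 3 on the higher and 9 on the lower side without OVX-PBS replicate 1.

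**Figure D5:**
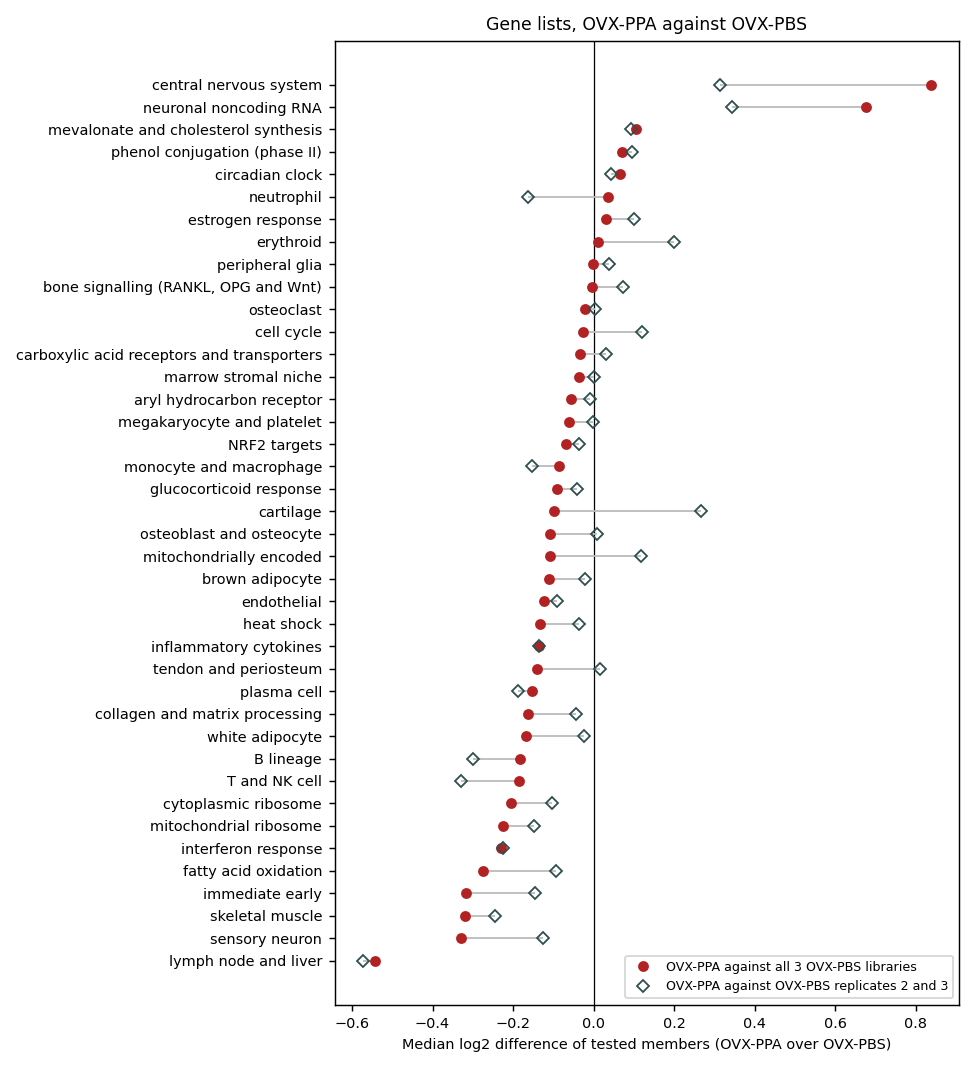
Median log2 difference of the tested members of 40 gene lists, OVX-PPA over OVX-PBS, with filled points for all 3 OVX-PBS libraries and open diamonds for OVX-PBS replicates 2 and 3. The immediate early median is -0.32 with and -0.14 without OVX-PBS replicate 1, the interferon median -0.23 and -0.22, and the central nervous system median 0.84 and 0.31.

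Blood cell genes differed widely among the libraries of each group, and neutrophil genes of the OVX-PPA libraries lay on opposite sides of OVX-PBS. Mpo, the granule enzyme of neutrophil precursors, read 90.2 and 303 CPM in OVX-PPA, against 119, 169 and 287 CPM in OVX-PBS. Rag1, the recombinase of developing lymphocytes, read 8.19 and 34.1 CPM in OVX-PPA, against 9.95, 13.1 and 30.8 CPM in OVX-PBS. Replicate 2 of OVX-PPA and replicate 3 of OVX-PBS were the marrow-rich libraries of their groups. On the log2 CPM scale, B lineage genes averaged 3.23 and 4.29 in OVX-PPA and 3.59, 3.74 and 4.44 in OVX-PBS. Plasma cell genes averaged 3.20 and 4.29 in OVX-PPA and 3.67, 3.61 and 4.61 in OVX-PBS. In 12 of 40 lists the distance between the 2 OVX-PPA libraries exceeded the whole range of OVX-PBS. From OVX-PPA replicate 1 alone the neutrophil median was -0.89 and from replicate 2 alone 0.62. Genes that read higher in replicate 1 of OVX-PPA included Acta2, the smooth muscle actin (132 and 50.5 CPM), and the cartilage collagens Col2a1 (285 and 120 CPM) and Col10a1 (28.7 and 12.3 CPM). Cd209a, a lectin of dendritic cells, did not follow the marrow RNA and read 2.60 and 3.40 CPM in OVX-PPA, against 6.12, 5.36 and 4.16 CPM in OVX-PBS (-0.78 ± 0.26, 95% interval -1.34 to -0.22).

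The named gene with the largest difference on the higher side was Bc1, a short noncoding RNA that neurons make and carry into dendrites, where it represses translation. It is a transcript of RNA polymerase III with an internal run of adenines, and its sequence is shown because that run is within the RNA and the libraries were made by poly(A) selection. The gene lies at mm10 chr7:144914470-144914637 on the + strand (ENSMUSG00000115783) and is 168 bases long in the GENCODE M21 transcripts, and its run of 23 adenines at bases 77 to 99 is in capitals.
Bc1: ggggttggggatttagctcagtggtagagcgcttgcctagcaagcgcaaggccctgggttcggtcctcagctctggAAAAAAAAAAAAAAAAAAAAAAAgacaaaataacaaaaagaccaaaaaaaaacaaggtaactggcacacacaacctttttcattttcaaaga
Bc1 read 504 and 136 CPM in OVX-PPA, against 10.7, 34.3 and 36.8 CPM in OVX-PBS. The log2 difference was 3.54 ± 0.87 with a 95% interval of 1.65 to 5.44, an unadjusted p below 0.05 and an edgeR adjusted p of 1.00. Both treated libraries were above every OVX-PBS library, and they differed from each other more than the OVX-PBS libraries with nervous tissue did. OVX-HA read 43.6, 7.08 and 102 CPM, sham 38.4, 70.5 and 108 CPM and OVX-ZA 242, 197 and 205 CPM. The level in OVX-PPA replicate 2 was thus below that of all 3 OVX-ZA libraries. Without OVX-PBS replicate 1 the difference was 3.17 ± 0.96.

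Other neuronal RNAs were higher by less. Of the 6 neuronal noncoding RNAs 6 were above 0, and after Bc1 the next was Snhg11, which read 493 and 449 CPM in OVX-PPA, against 105, 350 and 392 CPM in OVX-PBS (0.74). All 20 central nervous system genes were above 0, and 18 read higher in both OVX-PPA libraries than in all 3 OVX-PBS libraries, beside a background of 11.6%. None had an unadjusted p below 0.05. The median was 0.84, and 0.31 without OVX-PBS replicate 1. Mobp, a myelin protein of oligodendrocytes, read 450 and 418 CPM in OVX-PPA, against 5.55, 285 and 305 CPM in OVX-PBS (1.13, -2.08 to 4.34). The choline transporter Slc5a7 read 19.6 and 15.9 CPM in OVX-PPA, against 0.515, 9.01 and 12.5 CPM in OVX-PBS. Cacng2, a subunit that anchors glutamate receptors, and Hapln2, a matrix protein of myelinated axons, showed the same order of libraries. Nervous tissue transcripts varied within the groups, since OVX-PBS replicate 1 and OVX-HA replicate 2 held few of them, and their part in the Bc1 difference was not tested. Sensory neuron genes had a median of -0.33, and of -0.13 without OVX-PBS replicate 1.

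The remaining genes with the smallest p on the higher side were low in abundance. Pigh, which takes part in the first step of glycolipid anchor synthesis, read 13.2 and 12.2 CPM in OVX-PPA, against 7.72, 9.47 and 9.94 CPM in OVX-PBS (0.49 ± 0.16). Maml2, a coactivator of Notch, read 15.0 and 11.7 CPM in OVX-PPA, against 10.4, 9.59 and 10.8 CPM in OVX-PBS (0.38 ± 0.15). Both genes were higher in the 2 treated libraries without overlap. Tmem67, a protein of the ciliary transition zone, read 5.32 and 4.99 CPM in OVX-PPA, against 3.89, 3.23 and 4.05 CPM in OVX-PBS (0.47), and Cetn4, a centrin of basal bodies, read 3.15 and 3.08 CPM in OVX-PPA, against 2.00, 2.44 and 1.84 CPM in OVX-PBS (0.57). Stk32b, a kinase, Ccdc171 and Tnk2os differed by 0.76, 0.72 and 0.71. On the lower side, Fam221b (-0.66), Riiad1 (-1.02), Eps8l1 (-0.91), Nphs1 (-0.75) and the peptide transporter Slc15a2 (-0.97) completed the named genes. Some genes named so far with an unadjusted p below 0.05 also had one above it without OVX-PBS replicate 1. These were Hspa1a, Hspa1b, Ier2, Mrps21, Mrpl34, P4ha1, Scx, Stk32b, Ccdc171 and Eps8l1. Slc15a2 read 14.1 and 4.25 CPM in OVX-PPA, against 19.1, 14.9 and 19.2 CPM in OVX-PBS, so 1 treated library carried most of that difference. Of the 37 genes named by p or size, 22 overlap a gene on the opposite strand, among them Jun, Cebpb, Pigh and Tnk2os, an antisense transcript of Tnk2. Whether counting used strand is not given in the sources used here, so reads of such partners may be mixed.

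Against hippuric acid, the other small aromatic acid of the series, OVX-PPA showed no gene past the threshold. Hippuric acid carries a glycine on its benzoyl group and has no ring hydroxyl, while 3-(3-hydroxyphenyl)propionic acid has a ring hydroxyl and a propionic acid chain. Both were given for 8 weeks, and whether their doses matched is not given in the sources used here. With edgeR, 0 of 21761 genes passed (0% called) and 260 (1.19%) had an unadjusted p below 0.05, of which 100 (0.46%) were higher and 160 (0.735%) lower in OVX-PPA, and DESeq2 passed 0 with 267 below that p. Of the same 11668 genes, chosen by their mean in OVX-PPA or OVX-PBS and not in OVX-HA, 90.3% had a 95% interval within 2-fold. The higher genes named by rule were Bc1, Dio2 and Ccdc152. Dio2, the deiodinase that activates thyroid hormone, read 17.5 and 21.7 CPM in OVX-PPA, against 12.9, 11.2 and 11.01 CPM in OVX-HA (0.74 ± 0.24, 95% interval 0.22 to 1.26). Ccdc152, which overlaps the highly expressed Selenop on the other strand, read 3.09 and 1.75 CPM in OVX-PPA, against 1.12, 1.32 and 1.38 CPM in OVX-HA. The lower genes were Tle1, a Groucho corepressor (-0.35), Pagr1a, which overlaps its copy Pagr1b (-0.38), and Nr4a3 (-1.10). White adipocyte genes had a median of 0.28 for OVX-PPA over OVX-HA, with Adipoq at 0.23 and none shown to differ. Heat shock genes had a median of -0.11. Both OVX-PPA libraries read lower than all OVX-HA libraries for Hspb1 (-0.42 ± 0.18, 95% interval -0.82 to -0.02). Cebpb was at 37.4 and 36.3 CPM in OVX-PPA, against 39.5, 34.6 and 29.1 CPM in OVX-HA (0.10).

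Against sham, 0 of 21761 genes passed with edgeR (0% called) and 397 (1.82%) had an unadjusted p below 0.05, of which 158 (0.726%) were higher and 239 (1.1%) lower in OVX-PPA, while DESeq2 passed 0 with 394 below that p. These comparisons share the 2 OVX-PPA libraries with the one against OVX-PBS. Col14a1, a collagen of tendon and skin, read 38.6 and 37.5 CPM in OVX-PPA, against 27.1, 24.5 and 31.8 CPM in sham (0.45 ± 0.14, 95% interval 0.15 to 0.76), and 51.3, 41.7 and 38.7 CPM in OVX-PBS. It read higher in both treated libraries than in all sham libraries. Bcl7a, a subunit of chromatin remodelling complexes, differed by 0.46 and Igll1, a surrogate light chain of pre-B cells, by 1.42. Igll1 read 3.201 and 11.2 CPM in OVX-PPA, against 2.26, 3.16 and 2.704 CPM in sham. The lower genes were Osgin1, Tppp3 (134 and 122 CPM in OVX-PPA, against 149, 199 and 165 CPM in sham) and Il4ra, the interleukin receptor subunit (16.2 and 24.2 CPM in OVX-PPA, against 35.3, 35.8 and 28.9 CPM in sham, -0.72 ± 0.22). Osteoclast genes had a median of -0.07 and osteoblast genes of 0.18 for OVX-PPA over sham. Genes of lymph node and liver had a median of -2.72. Their mean log2 CPM was -0.66 and -0.82 in OVX-PPA, against 1.10, 0.91 and 0.92 in sham. In OVX-PBS it was -0.76, -0.27 and -0.64. T and NK cell genes had a median of -0.56 and B lineage genes of 0.56 over sham. Whether tissue carried along with the tibia made these differences was not tested.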

How the data were processed

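Tibia poly(A) RNA was read as single reads of 75 nt from a stranded library kit, per the labels' protocols. The build was mm10, and STAR 2.7.8a, Bowtie2 2.2.5, CASAVA 1.8.1 and Partek are listed without roles, per the submitters' processing notes. No source used here states the annotation, the counter or the use of strand. The authors deposited estimated counts per gene symbol, not normalized, and a table of log2 values that equals log2 of the count plus 1e-04 minus a constant per library to within 0.0055.

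Here the estimated counts were rounded, filtered by group with edgeR, and scaled by TMM. In R 4.3.3, edgeR 4.0.16 fitted 5 group means to the 14 libraries by quasi-likelihood, without covariates and with 9 residual degrees of freedom. Contrasts were 2-sided, and p-values of 21761 genes were adjusted by Benjamini-Hochberg and called at an FDR of 0.05. CPM are TMM-scaled, standard errors and 95% intervals come from the fit, and log2 CPM of list means used a prior count of 2. Gene coordinates came from GENCODE M21, and 53292 of 55291 symbols matched. DESeq2 1.42.0 and limma 3.58.1 were alternatives. The code was tested on simulated counts.

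The members, the 40 gene lists and the rule for named genes were chosen with earlier results of these data known. The rule named 10 genes per direction by p and 5 by size whose libraries did not overlap (means of at least 2 and 10 CPM), the 2 members of each list with the smallest p, of which fewer are printed, 18 bone, fat, receptor and stress genes, and 3 genes per direction in the other comparisons. Choices by p or size left out predicted genes, pseudogenes and antibody or T cell receptor segments. Other genes with printed or plotted values (Slc32a1, Ucp1, Hspa1a, Hspa8, Hspa4l, Ier2, Fos, Nr4a1, Axin2, Ctnnb1, Hmox1, Mrpl34, Irf7, Mpo, Rag1, Acta2, Col2a1, Col10a1 and Snhg11) were chosen after their values were seen. One gene that the rule names is not reported here. Some listed genes fell below the filter or were not matched and are not analysed here.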

Additional observations from a re-analysis of the deposited data

How the results depend on the processing

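The OVX-PPA libraries number 2, and differences under about 2-fold in low genes are beyond the precision of the fit. In the 3 comparisons 0 genes passed the FDR under edgeR with either normalization, without the filter, with only the groups compared, with DESeq2, without the low nervous system libraries and without each library in turn. The exception was limma on the deposited log2 values, which passed 1 gene in each comparison.

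Counts at an unadjusted p below 0.05 moved more. Against OVX-HA they were 516 without a filter, 138 with only the 2 groups and 1164 without the 2 libraries with few nervous system transcripts, where the main count was 260. Against sham they were 599 without a filter and 753 without those 2 libraries, where the main count was 397. Leaving out libraries in turn gave 229 (without OVX-PBS replicate 1, 106 higher and 123 lower) to 890 (without OVX-PBS replicate 3) against OVX-PBS, 347 to 1084 (without OVX-HA replicate 2) against OVX-HA, and 379 to 547 against sham. The split of higher and lower genes against OVX-PBS was 284 and 292 without a filter and 83 and 402 with limma. Apart from the alternatives' own construction, the cause was not tested.

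Whether the replicate numbers in the titles pair the samples could not be decided. Deviations of same-numbered OVX-PPA and OVX-PBS libraries from their group means had correlations of 0.06 and -0.16. With 2 OVX-PPA libraries these deviations mirror each other, so the correlations cannot exclude pairing. Over all pairs of groups, same-numbered correlations ran from -0.554 (OVX-HA and OVX-PBS, replicate 1) to 0.425 (OVX-HA and OVX-PBS, replicate 3). With the replicate block, 390, 238 and 360 genes had an unadjusted p below 0.05 against OVX-PBS, OVX-HA and sham, and 0 passed.

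Log2 differences near 0 against OVX-PBS changed sign under some alternatives, and the cause was not tested. Ctsk was 0.0062 without a filter and 0.012 with only the 2 groups. With the replicate block the values were Acp5 -0.13, Tnfrsf11b -0.015, Pparg -0.032, Hcar2 -0.022. Without the 2 libraries with few nervous system transcripts they were mt-Co3 0.034, Bub1 0.0197, Ccnb1 0.079, Cxcr2 -0.048, Epor 0.12, Ctsk 0.0055, Adipoq 0.015, Esr1 0.0201, Ahr 0.12, Nfe2l2 0.023. Leaving out each library in turn gave these ranges of the log2 difference: mt-Co3 -0.41 to 0.031, Bub1 -0.32 to 0.014, Ccnb1 -0.29 to 0.075, Cxcr2 -0.90 to 0.84, Epor -0.56 to 0.12, Ctsk -0.086 to 0.046, Adipoq -0.22 to 0.10, Esr1 -0.14 to 0.015, Ahr -0.19 to 0.12, Nfe2l2 -0.13 to 0.018, Acp5 -0.10 to 0.10, Tnfrsf11b -0.14 to 0.17, Cxcl12 -0.64 to 0.23, Cd79b -0.79 to 0.027, Col1a1 -0.27 to 0.037, Pparg -0.10 to 0.24, Sost -0.036 to 0.93, C1qa -0.45 to 0.12, Hcar2 -0.18 to 0.33, Ctsg -0.73 to 0.87, Bglap -0.27 to 0.024, Tnfsf11 -0.062 to 0.30, Lep -0.57 to 0.077.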

Other observations

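Gm3912, a predicted gene named after its values were seen, was the 1 gene that passed limma on the deposited log2 values, with an adjusted p of 1.55e-04 against OVX-PBS, 1.37e-04 against OVX-HA and 1.5e-04 against sham. Its estimated counts were 8.52e-10 and 4.98e-16 in the 2 OVX-PPA libraries, against 3.80, 6.15 and 15.1 in OVX-PBS, 12.4, 4.92 and 12.6 in OVX-HA and 8.71, 7.92 and 7.25 in sham. The deposited values add 1e-04 to each count before log2, so the 2 OVX-PPA values were set almost wholly by that offset. Gm3912 was also among the genes tested with edgeR and DESeq2 and passed neither. The part of the offset in the limma call was not tested.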
